A study of Mus musculus with 12 samples.

Results

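Has2 encodes a hyaluronan synthase and lies alone in a gene desert on mouse chromosome 15. The mm10 gene body, from 56665627 to 56694546 on chromosome 15, was taken with 500 kb on each side, giving a window from 56165627 to 57194546. Peaks of histone H3 lysine 27 acetylation (H3K27ac) from the 6 deposited lists were merged into regions wherever they shared 1 bp or more, or lay end to end, and 11 of the 85907 regions of the genome fell into this window. The window was selected on measured peaks, because a pair of its regions had them in every knockout list and in no WT list, so the presence, width and height of the peaks inside it are described here and not tested.

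The tissue was whole cortex lysate of mouse embryos at E15.5, a time of cortical neuron production. The cKO embryos carried Emx1-Ires-Cre with Prdm16 flox/flox, and the WT embryos carried Prdm16 flox/flox without Cre, so both groups share the floxed allele. Emx1-Ires-Cre is active in dorsal forebrain progenitors and the cells they produce, so cells of other origin in the lysate, such as vessels, meninges and interneurons, keep Prdm16. Each genotype had 3 H3K27ac libraries made from native chromatin digested with micrococcal nuclease, and nothing in the labels says whether they came from separate embryos or litters, so the spread behind any p-value may be technical.

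Hyaluronan is a long, unbranched sugar polymer of the extracellular matrix. Hyaluronan synthases are membrane enzymes that build it from UDP-glucuronic acid and UDP-N-acetylglucosamine and push it out of the cell, and Has2 is the synthase on which the mouse embryo most depends, above all for the endocardial cushions of the heart. In the brain hyaluronan is the backbone to which proteoglycans such as versican and neurocan are tied by link proteins. Acetylation of H3K27 marks promoters and enhancers in use. Deserts around developmental genes often hold distant enhancers, but peaks alone do not show which gene a site acts on. PRDM16 is a zinc-finger chromatin regulator that acts in neural progenitors.

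The lists held 59200, 58673 and 55007 peaks on the main chromosomes in cKO replicates 1, 2 and 3, against 66484, 75552 and 48160 in WT replicates 1, 2 and 3. The WT lists were thus both the longest and the shortest, and the depth in reads behind them is unknown. Replicates 1 and 2 of both genotypes carry one library identifier and replicate 3 of both another. Of 11 cortical marker genes, at least 10 had a peak within 2 kb of a gene end in every list. Prdm16 itself had a scaled covered length of 94626, 95103 and 99981 bp in cKO, against 80928, 76294 and 80857 bp in WT (log2 change 0.28 ± 0.11, SE, limma adjusted p = 0.359). Peaks over the whole locus do not check the deletion.

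The Has2 window was sparse in acetylation. Its 11 regions amounted to 10.7 per Mb, against a median of 43.2 per Mb over the same kind of window around all 21887 protein-coding genes, and 12.9% of those genes had fewer. Has2 was the only protein-coding gene in it. The nearest others were Sntb1, encoding a syntrophin of the dystrophin complex and ending 758 kb below Has2, and Slc22a22, encoding a solute carrier and starting 549 kb above it, so that 1336 kb held no protein-coding gene but Has2. Neither neighbour was called. Sntb1 with 20 kb on each side had 1004, 1587 and 964 bp of scaled covered length in cKO and 749, 953 and 799 bp in WT (log2 change 0.32 ± 0.14, SE, limma adjusted p = 0.450), and Slc22a22 had too little covered length to be tested.

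Of the 11 regions, 2 had a peak in all 3 cKO lists and in no WT list (cKO-only), 1 had a peak in all 3 WT lists and in no cKO list (WT-only), and 3 had a peak in all 6 lists. Of the other 5, 2 were seen in 1 list alone and 3 in a mixture of lists. Over the genome 0.347% of regions were cKO-only, 0.907% were WT-only and 46.4% were in all 6 lists. Among the 11866 regions that lay more than 100 kb from any protein-coding gene, 0.438% were cKO-only and 1.33% were WT-only. The choice of the window used this contrast, so nothing is read from the higher share of cKO-only regions here.

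**Figure D1:**
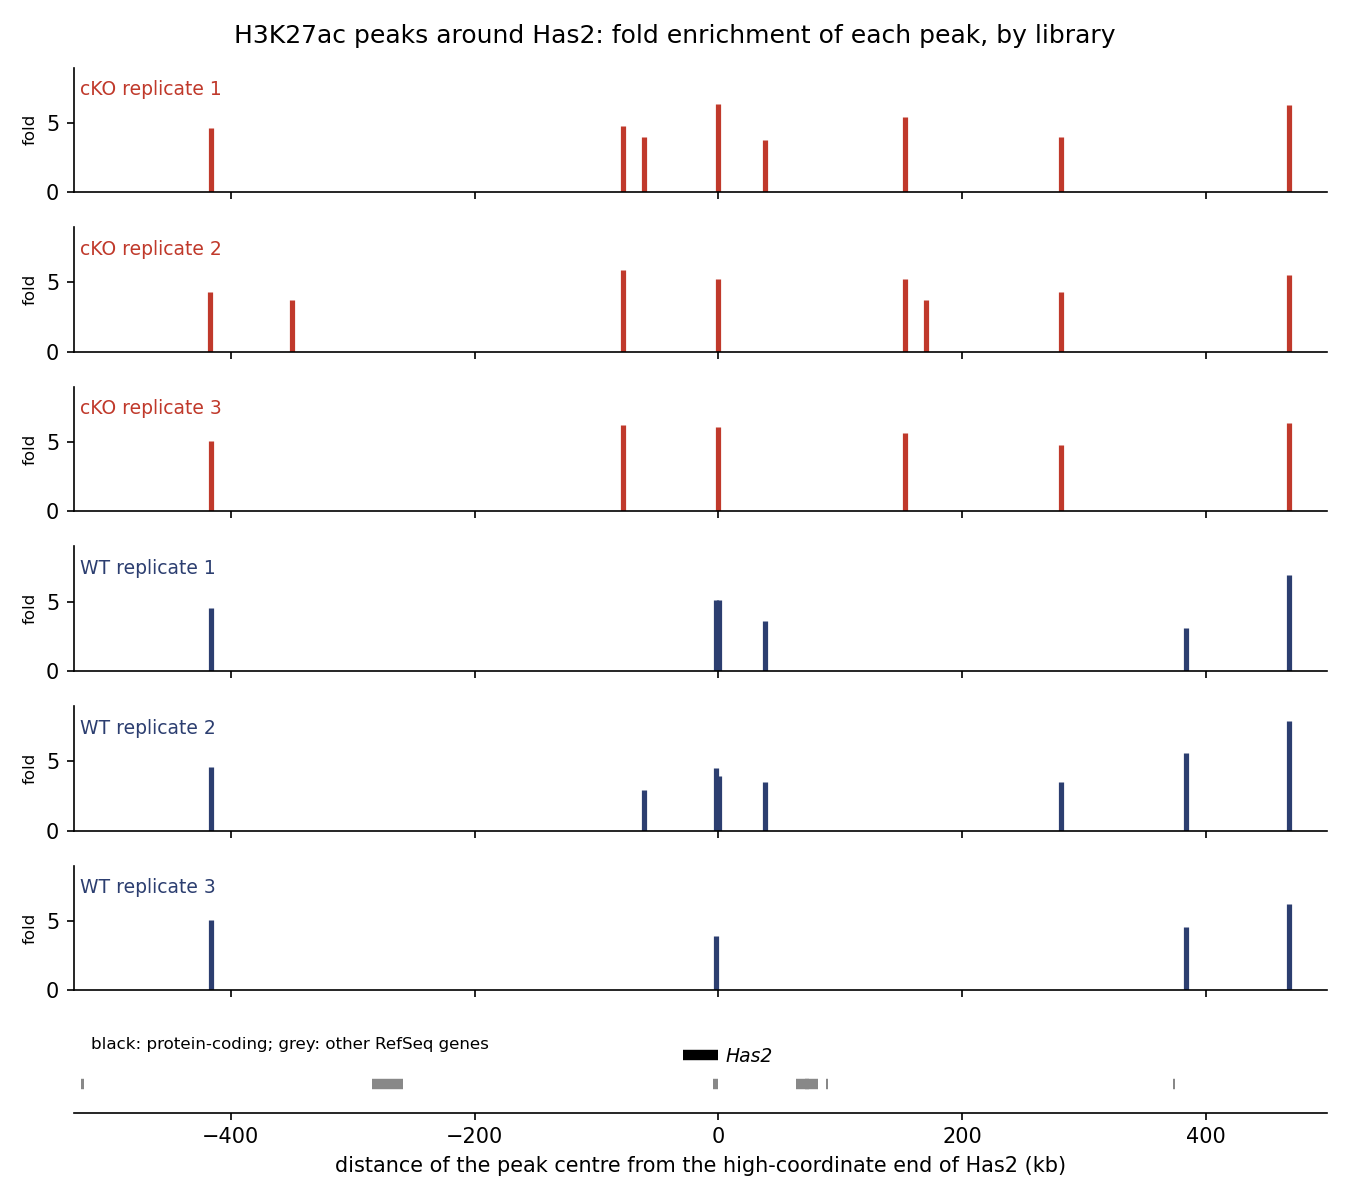
Each row is 1 library, with the 3 cKO libraries above the 3 WT libraries, and each line is a peak placed by its centre (x axis, kb from the high-coordinate end of Has2) with a height equal to its fold enrichment as the authors' peak caller gave it (y axis). The lines centred on the regions at -78.1 and 153 kb stand in the 3 cKO rows and in no WT row, while those at -416 and 468 kb stand in all 6.

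At the gene itself all peaks lay around its start. Has2 is transcribed from its high-coordinate end towards lower coordinates, and the antisense RNA gene Has2os, from 56689944 to 56694460, lies within the gene body with its high-coordinate end beside that start. In the cKO lists 1 unbroken peak ran across the start, 3402, 3341 and 3467 bp wide in replicates 1, 2 and 3. In WT replicate 1 there were instead 2 peaks of 811 and 1101 bp on either side of the start, in WT replicate 2 there were 2 peaks of 1163 and 1013 bp, and in WT replicate 3 there was 1 peak of 503 bp inside the gene. The bases under peaks in this region, which spans 56692511 to 56696028, were therefore 3402, 3341 and 3467 bp in cKO and 1912, 2176 and 503 bp in WT. The window was chosen on these peaks, so nothing is read from the gap between the groups. The WT values were more spread than the cKO values, the lowest being that of replicate 3, whose list was the shortest. In a whole lysate, more cells with an acetylated site and more acetylation per cell cannot be told apart.

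Between the flanking WT peaks lay a stretch that every cKO list covered and no WT list covered. It was 1078 bp long, from 56693674 to 56694751, and held the annotated start of Has2 at 56694546, with 873 bp of the stretch inside the gene and 205 bp before it. Over the genome 13240 ends of protein-coding genes lay under a peak in some list, and 9 of them (0.0680%) lay under a peak in 3 cKO and 0 WT lists. Besides Has2 these included ends of Dhx37, Gstm6, Lage3, Nfe2, Rarres1, Spata6 and Tnnt2, which were named after their values were seen. The opposite pattern, 3 WT and 0 cKO lists, was found at 23 gene ends. Of the 39882 regions with a peak in all 6 lists, 4 (0.0100%) held such a stretch at least as long as the one at Has2, and 5 held one in 3 WT and 0 cKO lists. The other 3 on the cKO side overlapped Veph1, overlapped Prdm16 itself and lay nearest to the potassium channel gene Kcna6, and these too were named after their values were seen. Ptx3, described below, lies inside Veph1, so the stretch at Veph1 and the call of Ptx3 are not taken as separate findings. The start of Has2 is part of the window's choice, so these counts are its background and not a test.

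**Figure D2:**
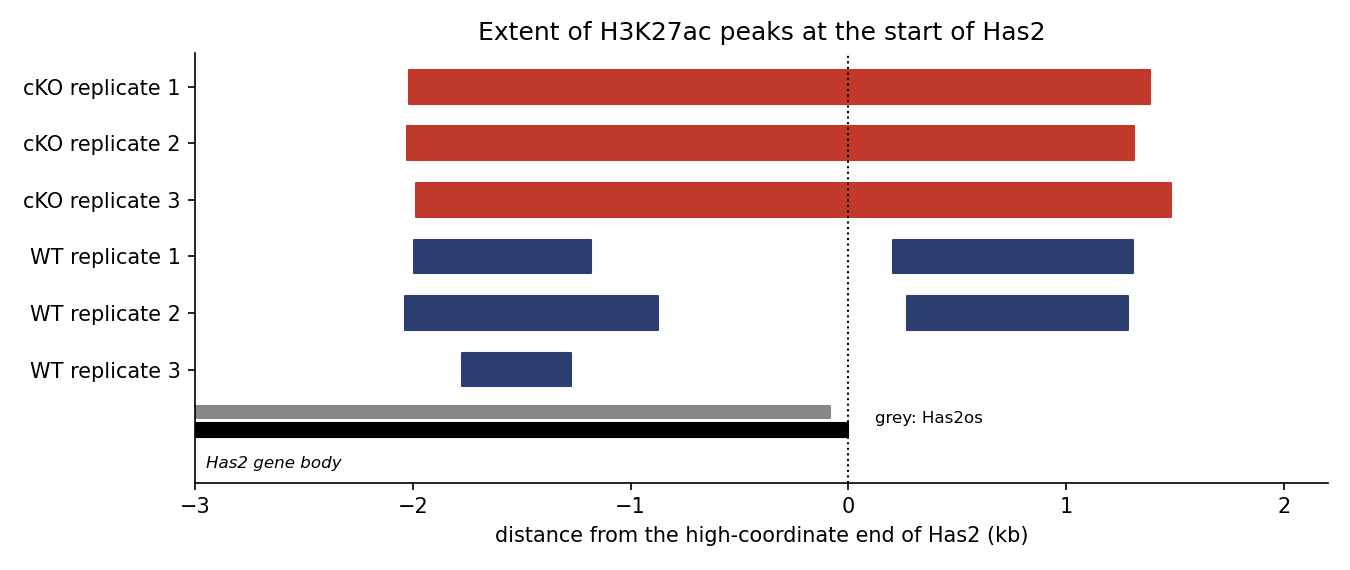
Bars show the extent of each H3K27ac peak at the start of Has2 in kb from its high-coordinate end (x axis, dotted line at 0), with the 3 cKO libraries above the 3 WT libraries and the gene bodies of Has2 (black) and Has2os (grey) below. The cKO peaks of 3341 to 3467 bp cross the dotted line, and no WT peak does.

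The authors' peak caller gave these peaks moderate values. Fold enrichment at the start of Has2 was 6.32, 5.25 and 6.07 in the cKO lists, against 5.10 and 5.11 for the peaks of WT replicate 1, 4.56 and 3.94 for those of WT replicate 2 and 3.92 for that of WT replicate 3. The -log10 q was 8.92, 6.58 and 7.85 in cKO and 6.06, 6.14, 5.34, 3.87 and 3.50 in WT. Such values belong to each list and are not on a shared scale. Within its own list the cKO peak had a higher -log10 q than 64.8%, 58.3% and 60.3% of the peaks, so it was a peak of middling rank in all 3.

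Summed over the gene body with 20 kb on each side and scaled to the same genome total in every library, the covered length of Has2 was 3396, 3433 and 3968 bp in cKO, against 1670, 1719 and 679 bp in WT. The mean was 3599 ± 320.5 bp in cKO and 1356 ± 587 bp in WT (SD, n = 3 each), a log2 change of 1.20 ± 0.18 (SE) after adding 500 bp to each length, which understates the change of short lengths. The median over the 15359 genes of the same fit was 0.05, and 5 genes had a higher value than Has2. All of this length lay in the region at the start. The difference between genotypes was 1719 bp between the means of replicates 1 and 2 and 3289 bp between the libraries of replicate 3.

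The first cKO-only region lay beyond the 3′ end of Has2, 48390 bp below it, from 56615574 to 56617236. It overlapped no RefSeq gene. Its peaks were 1320, 931 and 1554 bp wide in cKO replicates 1, 2 and 3, with a fold enrichment of 4.77, 5.93 and 6.22 and a -log10 q of 5.40, 8.67 and 8.42. The WT lists had 0 bp there, the longest list, WT replicate 2, included.

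The second cKO-only region lay 152381 bp beyond the start of Has2, from 56846928 to 56847900, and also overlapped no RefSeq gene. Its peaks were 777, 960 and 797 bp wide in cKO, with a fold enrichment of 5.41, 5.25 and 5.64 and a -log10 q of 6.90, 6.57 and 6.30, and the WT lists had 0 bp. Fold enrichment and -log10 q are not on a shared scale between lists, so their evenness between libraries is not compared. Within the cKO lists the peaks of both regions were again of middling rank, above 49.5% to 65.8% of the peaks in -log10 q.

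The WT-only region lay farther off, and the rank of its peaks within the lists varied more. It spanned 57078278 to 57078702, 383731 bp beyond the start of Has2, and its peaks were 356, 302 and 208 bp wide in WT replicates 1, 2 and 3, with a fold enrichment of 3.07, 5.59 and 4.58. The -log10 q was 1.89, 8.32 and 3.64 in WT replicates 1, 2 and 3, above 8.12%, 68.2% and 27.2% of the peaks of each list. With only peaks at or above a -log10 q of 5, and in lists reduced to the 48160 strongest peaks each, it was no longer WT-only. Both cKO-only regions kept their peaks in the 3 cKO lists. Neither setting adds peaks, so their absence from the WT lists was fixed in advance. The window was chosen on these peaks, so the settings do not test either kind of region.

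The regions shared by all 6 lists at the far ends of the window did not follow this pattern. The lower one, 56277288 to 56279124, lay 386502 bp below Has2 and had 1446, 1100 and 862 bp under peaks in cKO against 1546, 1068 and 849 bp in WT. The upper one, 57162295 to 57163385, lay 467748 bp beyond the start and had 864, 1046 and 941 bp in cKO against 1016, 1091 and 1070 bp in WT. It had the highest fold enrichment of the window in 4 of the 6 lists, at 5.56 to 6.39 in cKO and 6.21 to 7.91 in WT. The genotypes overlapped at both regions.

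The 5 remaining regions had no peak in at least 2 of the 6 lists. The one 281110 bp beyond the start had peaks of 441, 226 and 163 bp in the cKO lists and of 255 bp in WT replicate 2, and none in WT replicates 1 and 3. It joined the cKO-only regions in the lists of equal length and without WT replicate 2. The one 37721 bp beyond the start leaned the other way, with 306, 0 and 0 bp in cKO and 483, 851 and 0 bp in WT. The one 31744 bp below Has2 had 222 bp in cKO replicate 1 and 372 bp in WT replicate 2. The last pair, of 183 and 175 bp, was seen in cKO replicate 2 alone.

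**Figure D3:**
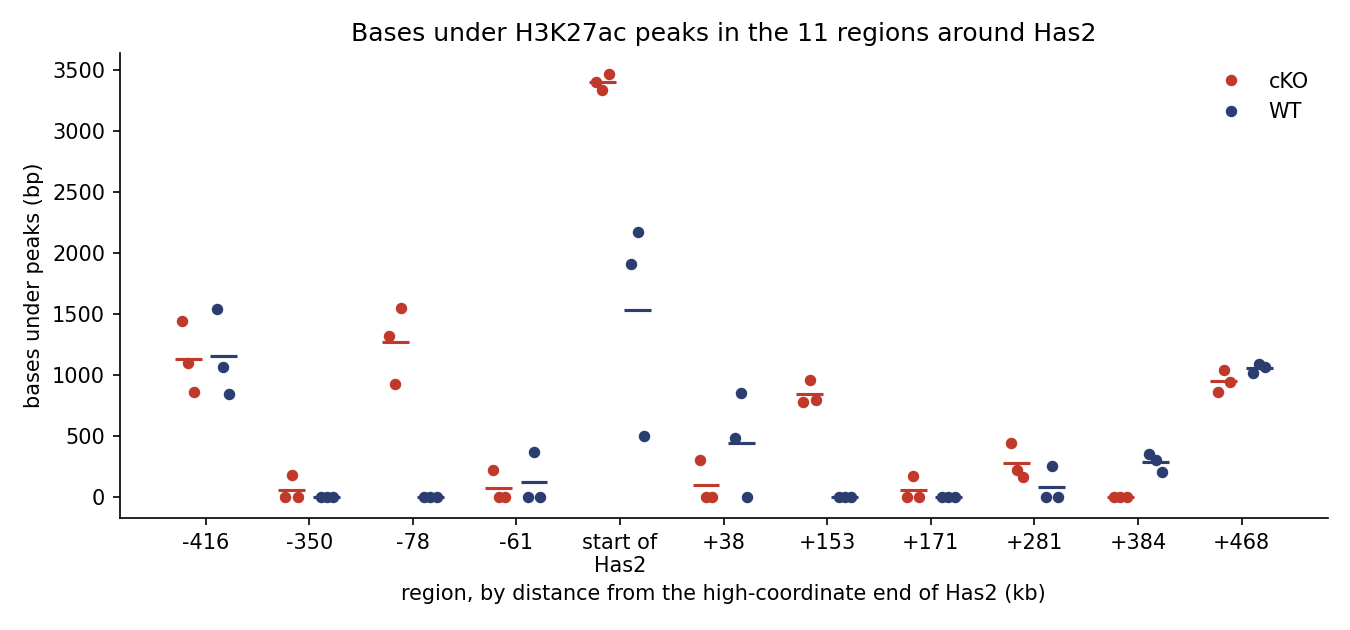
Bases under H3K27ac peaks (y axis, bp, not scaled) in each of the 11 regions, ordered by distance in kb from the high-coordinate end of Has2 (x axis), with cKO libraries left and WT libraries right at each place; points are libraries and short lines are means of 3. The genotypes stand apart at the start of Has2, which is part of the window's choice, and overlap at the outermost regions. At the 2 cKO-only regions and the WT-only region they stand apart by definition.

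Over the whole window the cKO lists held 8, 8 and 6 peaks and the WT lists 6, 8 and 4. The bases under them came to 8778, 7962 and 7784 bp in cKO, against 5313, 6115 and 2630 bp in WT. After scaling, the mean was 8617 ± 385 bp in cKO and 4341 ± 690 bp in WT (SD, n = 3 each), a ratio of 1.98. Of the unscaled difference of 3489 bp, 1873 bp lay at the start of Has2 and 1616 bp in the desert. The scaled difference was 3735 bp between the means of replicates 1 and 2 and 5358 bp between the libraries of replicate 3. Outside the window, the nearest region lay 56.8 kb below the lower edge and had 316, 0 and 0 bp in cKO and 798, 416 and 415 bp in WT. The nearest above the upper edge lay 122 kb beyond it and had 205, 234 and 0 bp in cKO and 0, 682 and 0 bp in WT. The nearest regions inside the edges were the shared ones given above.

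Has2 is also a gene of mesenchymal cells, and a whole lysate holds some of these. Of 7 meningeal and fibroblast markers, 2, 4 and 2 had a peak within 2 kb of a gene end in cKO replicates 1, 2 and 3, against 3, 5 and 3 in WT, with the collagen gene Col3a1 and Twist1 at 0 in all 6 lists. Their summed scaled covered length was 7.31, 8.55 and 8.07 kb in cKO and 9.19, 10.8 and 9.22 kb in WT. The groups did not overlap. How often groups of 3 libraries stand apart over all genes was not counted, so nothing is read from this. Only Col1a1 and Lum had such a peak in every library, and whether the sum tracks the amount of mesenchymal cells was not tested. No other list stood apart between genotypes. For 4 pericyte markers it was 10.5 to 12.0 kb in cKO and 8.04 to 13.9 kb in WT, and for 5 endothelial markers 11.5 to 12.7 kb in cKO and 9.34 to 13.6 kb in WT, with Pecam1 and Tie1 at 0. For 4 choroid plexus markers it was 2.82 to 3.54 kb in cKO and 2.43 to 3.32 kb in WT, with Ttr, the defining gene, at 0. For 5 microglial markers it was 8.29 to 11.1 kb in cKO and 10.9 to 12.6 kb in WT, with Cx3cr1, C1qa and C1qb at 0. The neural lists were far larger. For 6 markers of the ganglionic eminence and interneurons it was 118 to 130 kb in cKO and 95.4 to 133 kb in WT, and for the 11 cortical markers 289 to 312 kb in cKO and 253 to 344 kb in WT. The part of the cell makeup in the Has2 values was not tested.

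A pair of cKO-only regions in a window of this kind was uncommon over the genome. The Has2 window was chosen for holding such a pair, so the counts that follow are its background and not a test. Of the 21887 protein-coding genes, 161 (0.736%) had at least 2 cKO-only regions within their gene body plus 500 kb, 26 had at least 3, and 19127 had none. Overlapping windows share regions, and apart from Has2 these genes made up 33 loci. Of the loci with at least as many cKO-only regions as that of Has2, those with the most, given with no test, were nearest to A430005L14Rik and Trpm3, a cation channel gene, with 4 cKO-only and 0 WT-only regions in a gene's window, and to Igf2bp3 and Slc35d3, with 3 and 0. Csmd1 followed with 3 and 1. Of the 5082 genes with at most 22 regions in the window, a limit chosen after the values were seen, 6 had at least 2 cKO-only regions. Has2 was among the 6. The window of Slc35d3 held 29 regions with 3 cKO-only and that of Pdzrn3 61 regions with 1 cKO-only, against 11 regions with 2 cKO-only for Has2.

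The other hyaluronan synthase genes had no cKO-only and no WT-only region in their windows, of 23 regions for Has1 and 35 for Has3. Has1 with 20 kb on each side had a scaled covered length of 6735, 7380 and 7666 bp in cKO and 7206, 6674 and 7979 bp in WT (log2 change 0.00 ± 0.11, SE). Has3 had 4439, 5350 and 4966 bp in cKO and 3764, 3655 and 4826 bp in WT (log2 change 0.25 ± 0.12, SE, limma adjusted p = 0.529). Both genes overlapped between genotypes.

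The rest of the hyaluronan pathway was compared by the same fit across all genes. Of 33 genes of hyaluronan synthesis, binding and breakdown other than Has2 in the annotation, 27 had enough covered length to be tested, of which 1 was longer in cKO and 0 were shorter. Of all 15359 genes tested, 57 (0.371%) were longer and 49 (0.319%) shorter. The 1 call in the list was known from earlier results when the list was made, so comparing these counts does not test the list. The list's median log2 change was 0.06, against 0.05 over all genes, with 20 members positive and 7 negative, and 65.3% of all genes were positive. At an unadjusted p under 0.05 there were 2 members, against 1528 of all genes (9.95%). Some members are neighbours whose windows overlap, such as Hyal1, Hyal2 and Hyal3.

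The gene that passed was Ptx3, which encodes a pentraxin that cross-links hyaluronan in the matrix around the oocyte. It had 5984, 5974 and 7546 bp of scaled covered length in cKO, against 2665, 1668 and 2413 bp in WT (log2 change 1.36 ± 0.14, SE, limma adjusted p = 0.000862). Ptx3 lies inside Veph1, so the length cannot be assigned to it, and its call was known from earlier results of these data when the list was made. The call was lost without cKO replicate 3 (limma adjusted p = 0.107), without WT replicate 3 (0.115) and without scaling (0.316).

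No other member passed. Itih5, for a heavy chain of the inter-alpha-inhibitor family that binds hyaluronan, had 1858, 2858 and 2668 bp in cKO and 2004, 2016 and 1483 bp in WT (log2 change 0.34 ± 0.15, SE, limma adjusted p = 0.483). Tnfaip6, whose product transfers such heavy chains to hyaluronan, had a log2 change of 0.20 (limma adjusted p = 0.584). The hyaluronan-degrading Cemip2 and Cemip had log2 changes of 0.21 and 0.21 (limma adjusted p = 0.605 and 0.622). The proteoglycan genes Vcan, Bcan, Acan and Ncan lay between 0.01 and 0.08, the hyaluronidase genes Hyal1, Hyal2 and Hyal3 between 0.04 and 0.06, and Ugdh, which makes the precursor UDP-glucuronic acid, at 0.20. Among receptors, Hmmr was at 0.06, Lyve1 at -0.03 and Stab2 at -0.26. The link protein genes Hapln1, Hapln2 and Hapln3 were at -0.21, 0.01 and -0.14. Cd44, the main hyaluronan receptor gene, was too short to be tested, with 499, 450 and 0 bp before scaling in cKO and 594, 684 and 406 bp in WT.

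**Figure D4:**
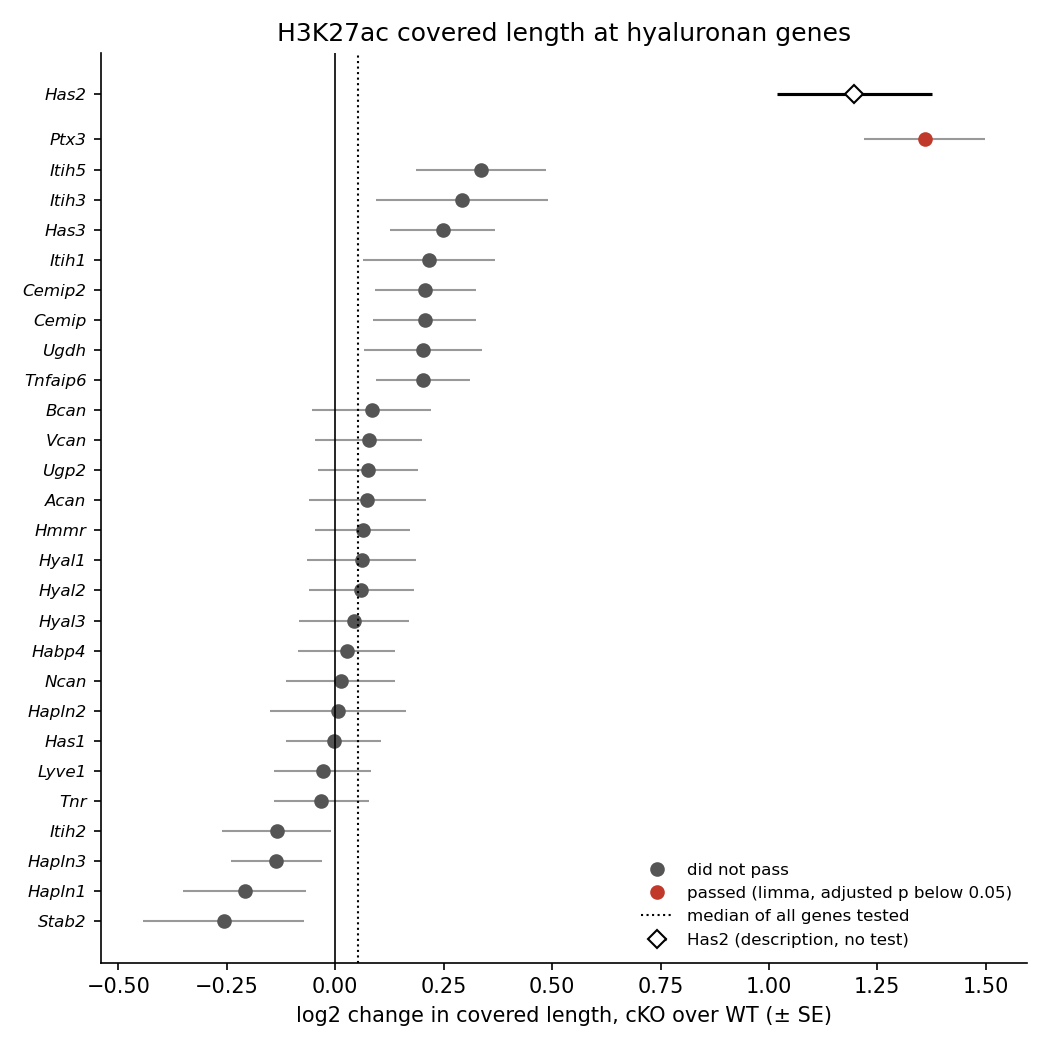
Log2 change in H3K27ac covered length, cKO over WT (x axis, with SE), of 27 hyaluronan genes tested, and above them Has2, shown as a description without a test; the dotted line is the median of all genes tested, 0.05. Ptx3 at 1.36 is the point that passed, and the other members lie between -0.26 and 0.34.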

How the data were processed

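H3K27ac was mapped in 3 cKO and 3 WT libraries. Bowtie2 2.2.8, MACS2 2.1.1, cutadapt and FastQC on mm10 are named in the submitters' processing notes, with settings and any control not given in the sources used here. Data of 6 input libraries were not analysed here. In each deposited broad peak list the authors' peak caller gave every peak a -log10 p, a -log10 q, a fold enrichment ratio and a display score that was not used. These values describe or rank peaks within 1 list. No reads are counted in such lists, so depth is unknown. Lists held 48160 to 75552 peaks on the main chromosomes.

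Genes came from RefSeq on GRCm38.p6, the assembly behind mm10 (21887 protein-coding genes), a table without strand or exons. Covered length is how many bases lie under peaks between 20 kb before and 20 kb after the gene body. It was scaled to the same genome total, put on the log2 scale with a pseudocount of 500 bp, and fitted by limma 3.58.1 in R 4.3.3 with the library identifier as covariate, for genes with a mean of at least 1000 bp, and Benjamini-Hochberg adjustment over all genes. It grows with the number and width of peaks, not their height. Python 3.11.15 was used for the rest. On simulated data for cKO minus WT over 15274 genes, log2 changes of 0.5, 1 and 2 were found in 34 of 67, 67 of 67 and 66 of 66 genes, with 13 false calls. Changes were placed only in genes of long covered length, above a limit that Has2 and several listed genes do not reach. Recovery thus does not give the power at short loci such as Has2. Uncalled genes are therefore not shown to be unchanged.

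The members and lists were chosen with earlier results of these data known. Named were Has2, its flanking genes and Prdm16; every cKO-only, WT-only and fully shared region; up to 5 loci with the most cKO-only regions; and up to 6 list members with the smallest p, to which further members were added after their values were seen. Of 34 symbols listed, Tmem2, an older name of Cemip2, is not in the table. Alternatives were a minimum -log10 q of 5, lists of equal length, 50% of a region covered, merging across 1 kb, other windows, pseudocounts, scalings, filters and covariates, and each library left out.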

Additional observations from a re-analysis of the deposited data

How the results depend on the processing

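The count of 2 cKO-only regions was 2 or 3 under all 10 alternatives, libraries left out included. It was 3 in lists of equal length and without WT replicate 2. Leaving out a library only takes peaks away, so a counted region keeps its class unless it splits. Those settings therefore do not test the counts of regions given here. The 1 WT-only region gave 0 at a minimum -log10 q of 5, in lists of equal length and with 50% of the region covered, and 1 with any library left out. The 3 regions in all 6 lists came to 1 at a minimum -log10 q of 5 and to 1 with 50% covered, and stayed at 3 with any library left out. The scaled difference of 4276 bp in covered length over the window was 3489 bp without scaling and 4082 to 4518 bp with a library left out. The stretch at the start of Has2, an alternative set chosen after seeing the data, was 1078 to 1389 bp with a library left out. Leaving out a library cannot shorten it. The log2 change of Has2 was 1.78 at a minimum -log10 q of 5, 0.75 with a pseudocount of 2000 bp and 0.84 to 1.30 with a library left out. The lowest of the latter were those without replicate 3 of either genotype. With the library identifier as covariate, the replicate 3 that remains has no partner and drops out of the contrast. Both settings thus compare replicates 1 and 2 alone and are 1 check. Why replicates 1 and 2 differ less was not tested, nor was the cause of the other shifts.

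The 1 hyaluronan gene called was 0 without scaling, and 0 to 1 with a library left out. Calls over all genes numbered 106 as reported and 2, 3 and 6 without cKO replicate 3, WT replicate 3 and WT replicate 2, and 232 and 228 without cKO replicates 1 and 2. The settings without either replicate 3 are again the same contrast of replicates 1 and 2. They numbered 38 at a minimum -log10 q of 5, 58 in lists of equal length, 39 and 208 with pseudocounts of 100 and 2000 bp, 23 without the filter and 39 without the covariate. Scaling to the total over gene windows, chosen after seeing the data, gave 42 calls (19 longer, 23 shorter), quantile normalization 22 (8 longer, 14 shorter) and no scaling 1, which was longer, against 57 longer and 49 shorter as reported. With a replicate block there were 168 calls and Ptx3 kept its call (limma adjusted p = 1.91e-05). Same-numbered libraries had deviations from their group means that correlated by 0.13, 0.06 and 0.26 across genes for numbers 1, 2 and 3, and cKO replicate 1 correlated more with WT replicate 2 (0.17), so the numbers were not taken to pair the libraries. The adjusted p of Ptx3 ranged from 1.1e-10 to 0.316 over its 18 alternatives.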
